A study of Mus musculus with 24 samples.

Results

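The expression of 10 genes tied to the transcription factors SRF and YAP was followed in TM3 cells, a mouse Leydig cell line, after a nanosecond pulsed electric field (nsPEF) or a sham treatment. The genes were chosen by name and by the RefSeq transcript that a probe of the array represents, and they were Ccn1 (older name Cyr61), Ccn2 (older name Ctgf), Ankrd1, Srf, Vcl, Acta2, Tagln, Cnn1, Tpm1 and Actb. They had 15 of the 56605 probes on the array, which stood for 10 of 23787 genes with a symbol. All 15 probes were among the 37687 that were tested, because each gave a signal well above background in 2 or more arrays of some group. There was 1 probe each for Ccn1, Ccn2, Ankrd1, Srf, Vcl, Tagln and Actb, while Acta2 and Tpm1 had 3 and Cnn1 had 2. A gene with several probes was counted by its brightest one. These 10 probes were well above background on all 24 arrays.

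The cells had been detached, suspended in buffer and placed in cuvettes in both arms of the study, and the sham cells differed only in that no pulses were given. The nsPEF cells received 80 pulses of 60 ns at 14 kV/cm over 180 s. RNA was taken at 0, 4 and 24 h, so the 6 groups were sham at 0 h (S0), nsPEF at 0 h (E0), and likewise S4, E4, S24 and E24, each with 4 biological replicates on arrays of their own. All 24 samples came from 1 cell line. Per the paper, the cells of the later times had been in standard culture after the treatment. The paper proposes that the long preparation before 0 h could have stressed the cells of both arms. No group held cells without this preparation, and effects of time, of preparation and of renewed culture cannot be told apart. Each slide carried the arrays of a single time, with sham in one row and nsPEF in the other. The effects of time and of slide therefore cannot be told apart, nor can those of treatment and of position on the slide. The 75th percentile of intensity ranged from 300 to 787 arbitrary units over the arrays, and from 51.2% to 62.1% of probes were well above background. At each time the nsPEF arrays had the smaller share, with 52.6% to 57.0% against 57.5% to 59.6% at 0 h, 51.2% to 56.0% against 57.7% to 62.1% at 4 h, and 52.4% to 57.2% against 59.0% to 61.0% at 24 h. Of 7 Leydig cell markers with a probe, Star, Cyp17a1, Nr5a1 and Scarb1 were well above background on all 24 arrays, while Cyp11a1, Hsd3b1 and Lhcgr were so on 0 arrays.

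SRF is a transcription factor that binds a short motif called the CArG box. With the cofactors MRTF-A and MRTF-B, which are held in the cytoplasm by monomeric actin and released when actin polymerizes, it drives genes of the contractile and adhesive cytoskeleton. With the TCF cofactors (ELK1, ELK3 and ELK4) it drives immediate early genes such as Fos. YAP is the coactivator at the end of the Hippo pathway. It enters the nucleus when cells spread on a stiff surface and acts through the TEAD factors, which bind a motif called the MCAT element, and Ccn1, Ccn2 and Ankrd1 are the targets most often used to read its activity. The targets of both systems overlap, and several of the genes below answer to each.

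To look for the motifs named above, the 250 bases before the start site were read from RefSeq promoter sequences of the build GRCm38.p6. They were present for 7 of the 10 genes, and Ccn2, Tagln and Actb had no entry. The windows were searched for the CArG box (a pair of C, then 6 bases of A or T, then a pair of G), which reads alike on both strands, for a near CArG box with 1 of these 6 bases replaced by G or C, and for the core of the MCAT element, GGAATG on one strand or CATTCC on the other. Capitals mark the matches in the following 5 windows, which were picked from the windows that held a match, and all run 5′ to 3′ along the gene. Of these, Vcl and Acta2 held both a CArG or near CArG box and the MCAT core. The windows of Tpm1 and Cnn1 are not shown.
Srf, chr17:46556163-46556412, minus strand: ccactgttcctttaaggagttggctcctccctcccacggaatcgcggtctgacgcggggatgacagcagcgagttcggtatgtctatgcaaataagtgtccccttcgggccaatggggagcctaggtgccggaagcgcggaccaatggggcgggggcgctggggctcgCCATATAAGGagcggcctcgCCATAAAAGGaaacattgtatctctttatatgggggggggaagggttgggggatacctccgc
Vcl, chr14:20929148-20929397, plus strand: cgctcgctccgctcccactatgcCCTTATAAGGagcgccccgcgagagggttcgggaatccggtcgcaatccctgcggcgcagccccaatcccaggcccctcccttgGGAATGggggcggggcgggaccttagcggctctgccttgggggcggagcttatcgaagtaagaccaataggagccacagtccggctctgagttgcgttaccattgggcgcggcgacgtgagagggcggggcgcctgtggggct
Acta2, chr19:34255374-34255623, minus strand: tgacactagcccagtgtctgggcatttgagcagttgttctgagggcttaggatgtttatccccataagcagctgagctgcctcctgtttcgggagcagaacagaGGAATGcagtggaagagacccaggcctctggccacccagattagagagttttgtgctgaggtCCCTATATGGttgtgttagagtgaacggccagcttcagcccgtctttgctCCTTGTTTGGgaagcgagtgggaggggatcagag
Ankrd1, chr19:36119845-36120094, minus strand: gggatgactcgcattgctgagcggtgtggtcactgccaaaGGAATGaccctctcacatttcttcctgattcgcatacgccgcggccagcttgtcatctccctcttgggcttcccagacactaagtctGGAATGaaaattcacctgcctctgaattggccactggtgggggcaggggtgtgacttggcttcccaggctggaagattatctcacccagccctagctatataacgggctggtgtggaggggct
Ccn1, chr3:145649986-145650235, minus strand: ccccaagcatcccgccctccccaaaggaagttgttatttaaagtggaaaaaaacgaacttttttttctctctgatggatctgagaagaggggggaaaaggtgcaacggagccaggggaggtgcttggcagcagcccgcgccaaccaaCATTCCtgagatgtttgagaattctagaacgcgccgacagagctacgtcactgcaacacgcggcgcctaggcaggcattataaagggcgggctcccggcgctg
The window of Srf itself held 2 CArG boxes and that of Vcl held 1. Among the promoters of the table, 1.47% of 32851 windows held a CArG box. Acta2 held 2 near CArG boxes, a form present in 7.24% of windows. The MCAT core occurred in 12.6% of windows and in those of Ankrd1 (2 matches), Ccn1, Vcl, Acta2 and Tpm1. The window of Tpm1 held no CArG box, and that of Cnn1 held none of these motifs. No motif overlapped another, and a match is a stretch of letters and not evidence of binding.

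The first question was how the genes changed with time after the treatment. A level is given here on the log2 scale relative to the 75th percentile of its array, so that 0 stands for that percentile, and levels of different probes are not comparable. In sham cells, 8 of the 10 genes rose between 0 h and 4 h, Ccn1 fell and Actb did not pass the test. Over all tested probes 29.0% rose and 30.3% fell in this interval. From 4 h to 24 h none of the 10 rose and 9 fell, beside 29.0% and 28.6% of all probes. Under scaling on the spike-in RNAs this sham count was 1 higher and 7 lower, since Tpm1 (0.019) and Acta2 (-0.22, adjusted p = 0.0655, from 1.5e-11 to 0.0655 over the 24 alternatives) were not called and Actb was called higher (0.66, adjusted p = 0.00131, from 0.00131 to 0.985). The median log2 difference of the 10 genes was 0.85 at 4 h against 0 h, where that of all probes was -0.014, and -1.15 at 24 h against 4 h, where that of all probes was 0.037. The nsPEF cells gave the same counts, with 8 genes higher and 1 lower at 4 h than at 0 h (32.8% and 28.4% of all probes) and 0 higher and 9 lower at 24 h than at 4 h (28.4% and 28.3%). Of the bright probes 36.9% were higher and 32.6% lower at 4 h than at 0 h, then 30.2% and 34.1% at 24 h. Calls came from limma over all 24 arrays, with p values adjusted by the Benjamini-Hochberg method over the tested probes and a threshold of 0.05. In each of these 4 comparisons the same 9 genes were called, and the arrays of the compared groups did not overlap for any of them. A lower level can come from less RNA per cell or from fewer cells of a kind, and RNA of whole cultures cannot tell these apart.

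**Figure D1:**
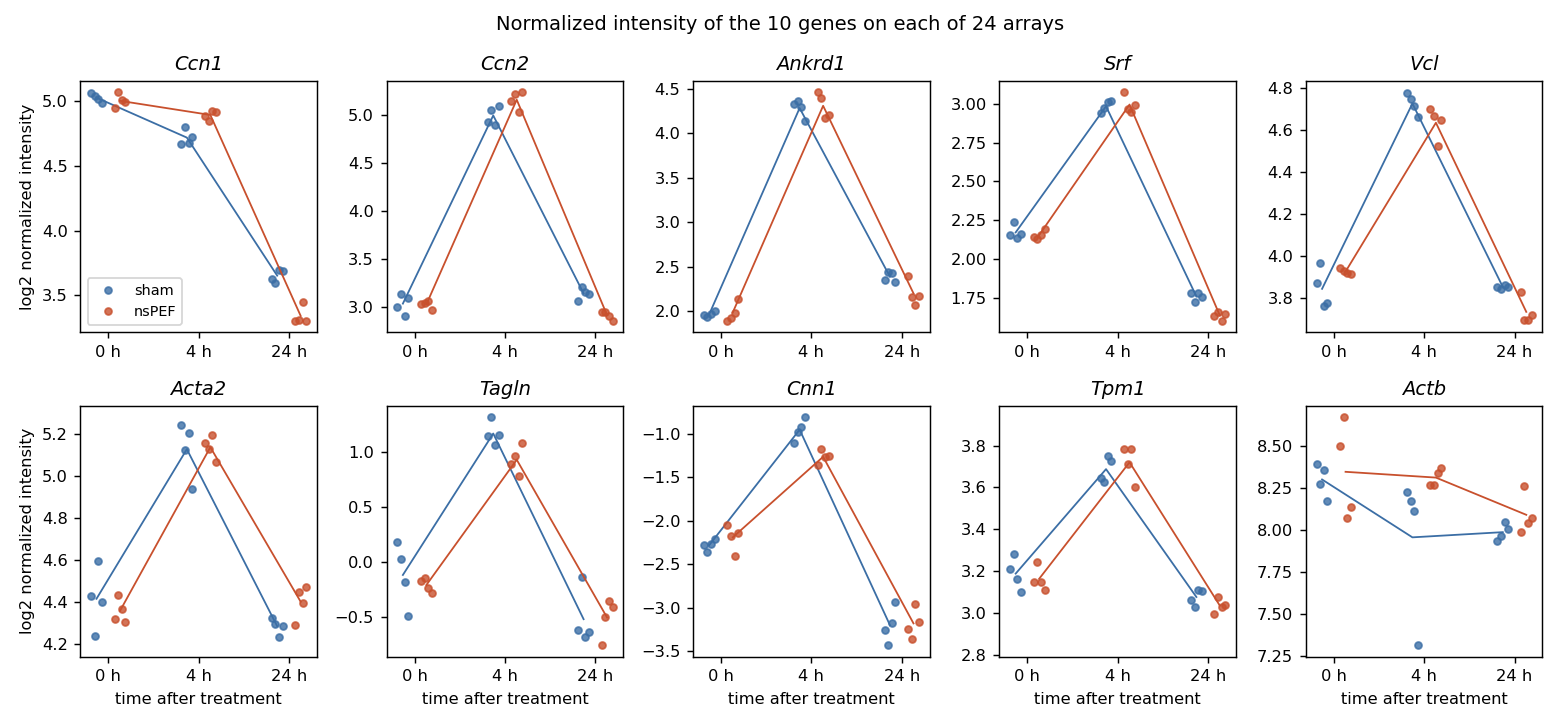
The log2 normalized intensity of the 10 genes (vertical axis, with its own range in each panel) is plotted at 0, 4 and 24 h for the 4 sham arrays (blue) and 4 nsPEF arrays (red) of each time, with lines through the group means. Peaks at 4 h stand out in 8 panels, a decline that is mostly after 4 h in that of Ccn1, and 1 low sham array in that of Actb.

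Among the targets of YAP, Ankrd1 and Ccn2 rose most of the 10 genes. Ankrd1 encodes a nuclear and sarcomeric ankyrin repeat protein that is induced by stretch. Its level on the sham arrays was 1.96, 1.93, 1.97 and 2.01 at 0 h, then 4.33, 4.37, 4.30 and 4.14 at 4 h and finally 2.35, 2.44, 2.43 and 2.33 at 24 h. On the nsPEF arrays it was 1.89, 1.93, 1.99 and 2.14 at 0 h, then 4.46, 4.40, 4.17 and 4.20 at 4 h and finally 2.40, 2.17, 2.07 and 2.17 at 24 h. Every 4 h array stood above every array of the other times. The rise was 4.98-fold in sham (log2 difference 2.32, SE 0.076, limma adjusted p = 9.5e-16) and 5.01-fold in nsPEF (2.32, SE 0.076, adjusted p = 8.2e-16). At 24 h Ankrd1 was still above its level at 0 h by 0.42 in sham (adjusted p = 2.0e-04), and it was the only one of the 10 called higher then, beside 18.1% of all probes. In nsPEF cells the remainder was 0.22 (adjusted p = 0.0278) and the groups overlapped by 1 array. This call was lost on leaving out any of 4 arrays, E0 replicates 1, 2 and 3 and E24 replicate 1, with adjusted p of 0.0835, 0.0678, 0.0515 and 0.110, and over the 24 alternatives it ranged from 2.9e-05 to 0.110.

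Ccn2 encodes a secreted matricellular protein that promotes matrix deposition. Its level on the sham arrays was 3.00, 3.14, 2.91 and 3.10 at 0 h, then 4.93, 5.05, 4.90 and 5.09 at 4 h and finally 3.07, 3.21, 3.16 and 3.14 at 24 h. On the nsPEF arrays it was 3.03, 3.05, 3.07 and 2.98 at 0 h, then 5.14, 5.21, 5.03 and 5.23 at 4 h and finally 2.95, 2.95, 2.91 and 2.86 at 24 h. The 4 h arrays stood apart from all others in both arms. Ccn2 rose 3.87-fold in sham and 4.36-fold in nsPEF (log2 differences 1.95 and 2.12, both SE 0.058, limma adjusted p = 2.4e-16 and 6.2e-17). It then fell 3.59-fold in sham and 4.71-fold in nsPEF. At 24 h it was close to its level at 0 h, with differences of 0.11 in sham (95% CI -0.015 to 0.23) and -0.11 in nsPEF (95% CI -0.23 to 0.009), neither of which passed the test, though with spike-in scaling these were 0.79 and 0.37 and both were called.

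Ccn1, the other secreted matricellular protein among the YAP targets, followed another course and declined throughout. Its level on the sham arrays was 5.06, 5.04, 5.02 and 4.99 at 0 h, then 4.67, 4.80, 4.68 and 4.72 at 4 h and finally 3.63, 3.60, 3.70 and 3.69 at 24 h. On the nsPEF arrays it was 4.94, 5.07, 5.01 and 4.99 at 0 h, then 4.88, 4.85, 4.93 and 4.92 at 4 h and finally 3.30, 3.31, 3.45 and 3.30 at 24 h. The times did not overlap in either arm. In sham cells it fell by 0.31 on the log2 scale to 4 h (SE 0.044, limma adjusted p = 4.2e-06) and by 1.07 more to 24 h (adjusted p = 6.1e-14), a total fall of 2.60-fold. In nsPEF cells it fell by 0.11 to 4 h (adjusted p = 0.0389) and by 1.55 from 4 h to 24 h (adjusted p = 3.3e-16), in all 3.17-fold. The small early fall in nsPEF was lost without E0 replicate 2, 3 or 4 or E4 replicate 1 or 2, with adjusted p of 0.118, 0.0692, 0.0564, 0.0719 and 0.102, and over the 24 alternatives the adjusted p ranged from 4.0e-04 to 0.852.

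Srf, the transcription factor whose own promoter window carries the 2 CArG boxes shown above, rose and then fell below its start. On the sham arrays its level was 2.15, 2.24, 2.14 and 2.16 at 0 h, then 2.94, 2.97, 3.01 and 3.02 at 4 h and finally 1.78, 1.72, 1.78 and 1.75 at 24 h. On the nsPEF arrays it was 2.14, 2.13, 2.15 and 2.19 at 0 h, then 3.08, 2.97, 2.95 and 2.99 at 4 h and finally 1.63, 1.65, 1.60 and 1.65 at 24 h. In both arms the 3 times formed separate levels without overlap. The rise to 4 h was 1.76-fold in sham and 1.79-fold in nsPEF (log2 differences 0.82 and 0.84, SE 0.037, limma adjusted p = 1.4e-13 and 7.6e-14). At 24 h Srf was lower than at 0 h by 1.33-fold in sham (adjusted p = 3.7e-08) and 1.43-fold in nsPEF (adjusted p = 1.2e-09), but scaling on the spike-in RNAs turned the log2 difference to 0.27 in sham and brought it to -0.040 in nsPEF. That scaling moved the median of all probes by 0.70 in sham and 0.55 in nsPEF between these times, and relative to those medians Srf was at -0.43 and -0.585.

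The smooth muscle genes Cnn1, Tagln and Acta2 rose in both arms as well. Other genes of smooth muscle contraction did not all rise, and Myl9 and Myh11 are described further below. One-by-one values of the chosen genes follow. Of the chosen genes, Cnn1 encodes calponin, which binds actin and inhibits the myosin ATPase. Its level on the sham arrays was -2.28, -2.36, -2.27 and -2.21 at 0 h, then -1.10, -0.97, -0.92 and -0.81 at 4 h and finally -3.26, -3.43, -3.17 and -2.94 at 24 h. On the nsPEF arrays it was -2.05, -2.17, -2.40 and -2.14 at 0 h, then -1.35, -1.18, -1.27 and -1.26 at 4 h and finally -3.24, -3.36, -2.96 and -3.16 at 24 h. All 4 h arrays were the highest and all 24 h arrays the lowest in their arm. The rise was 2.51-fold in sham and 1.90-fold in nsPEF, and the later fall was 4.75-fold and 3.77-fold. The second probe of Cnn1 was well above background on 2 arrays of S4 and on 0 arrays of every other group. It was tested only through that group, and its differences are not given.

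Tagln (transgelin, an actin-binding protein of smooth muscle and an SRF target) rose 2.45-fold in sham and 2.21-fold in nsPEF. Its sham levels ran from -0.50 to 0.18 at 0 h, from 1.06 to 1.32 at 4 h and from -0.69 to -0.14 at 24 h, and its nsPEF levels from -0.28 to -0.15, from 0.79 to 1.08 and from -0.76 to -0.36. The 4 h arrays stood above the others by more than the spread within any group, while 0 h and 24 h overlapped in sham. Tagln at 24 h was 1.32-fold lower than at 0 h in sham (limma adjusted p = 0.0217), which spike-in scaling turned to a log2 difference of 0.28, or -0.42 relative to the median of all probes. Leaving out S0 replicate 1 or 2 or S24 replicate 1, 3 or 4 ended this call (adjusted p from 0.0598 to 0.0902), with a range of 0.00258 to 0.106 over the 24 alternatives.

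Acta2 encodes smooth muscle alpha-actin, and its window carries the near CArG boxes shown above. Its brightest probe ran from 4.24 to 4.59 at 0 h, 4.94 to 5.24 at 4 h and 4.23 to 4.32 at 24 h on the sham arrays, and from 4.31 to 4.43, 5.07 to 5.20 and 4.29 to 4.47 on the nsPEF arrays. It rose 1.64-fold in sham and 1.72-fold in nsPEF and was back near its start at 24 h, with differences of -0.13 (95% CI -0.28 to 0.015) and 0.044 (95% CI -0.10 to 0.19), which spike-in scaling turned to 0.56 and moved to 0.52, both called. Probe A_52_P420504 of Acta2 also rose at 4 h in both arms, but was lower at 24 h than at 0 h by 0.64 in sham (limma adjusted p = 8.2e-07) and 0.46 in nsPEF (adjusted p = 3.6e-05). The remaining probe, A_52_P210078, was well above background on 0 arrays of E0 and of E24, and its differences are not given. The 3 probes are annotated to the same transcript.

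Vcl encodes vinculin, which joins integrin adhesions to actin. Its levels were 3.76 to 3.96 at 0 h, 4.66 to 4.78 at 4 h and 3.84 to 3.86 at 24 h in sham, and 3.91 to 3.94, 4.53 to 4.70 and 3.69 to 3.83 in nsPEF. The rise was 1.85-fold in sham and 1.64-fold in nsPEF. At 24 h sham cells were at their start (difference 0.009, 95% CI -0.093 to 0.11, but 0.70 with spike-in scaling), and nsPEF cells were 1.14-fold lower than at 0 h (limma adjusted p = 0.00353, from 0.00133 to 0.0232 over the 24 alternatives), a difference of -0.19 that spike-in scaling turned to 0.29, or -0.26 relative to the median of all probes.

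Tpm1 encodes tropomyosin 1, which lies along actin filaments and is made in many isoforms, and its 3 probes represent different RefSeq transcripts. The brightest, A_66_P105457, rose 1.41-fold in sham and 1.47-fold in nsPEF. Its levels were 3.10 to 3.28, 3.63 to 3.75 and 3.03 to 3.11 in sham and 3.11 to 3.25, 3.60 to 3.78 and 3.00 to 3.07 in nsPEF, so that 4 h did not overlap with the other times. Probe A_55_P2078680 rose more, 2.42-fold in sham (log2 difference 1.28, SE 0.064) and 2.84-fold in nsPEF (1.51, SE 0.064). Probe A_55_P2187053 was not called in either arm, with differences of -0.17 (95% CI -0.68 to 0.34) and 0.45 (95% CI -0.099 to 1.00). It lies in row 7 of the 384 spot rows, its spot on E4 replicate 2 was left out as marked by the scanner software, and its levels on the other E4 arrays were -0.28, -0.070 and 1.51. The fall of the brightest probe from 4 h to 24 h held in sham under every alternative but spike-in scaling, where it was 0.019, or -0.65 relative to the median of all probes. Its difference of -0.13 between 24 h and 0 h in nsPEF (adjusted p = 0.0430) was not called without E0 replicate 1, 2 or 3 or E24 replicate 1, 3 or 4, with an adjusted p over the 24 alternatives from 4.7e-04 to 0.904, and spike-in scaling turned it to 0.35, or -0.19 relative to the median. Probe A_55_P2078680 went the other way between these times in nsPEF and was called higher at 24 h (0.23, limma adjusted p = 0.00640), though the groups overlapped. In sham it gave 0.16 and was not called (adjusted p = 0.0563).

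Actb, which encodes beta-actin and is often used as a reference gene, was the 1 gene called in none of the 9 comparisons. Its level on the sham arrays was 8.40, 8.28, 8.36 and 8.18 at 0 h, then 8.23, 8.18, 8.11 and 7.31 at 4 h and finally 7.93, 7.97, 8.05 and 8.01 at 24 h. On the nsPEF arrays it was 8.51, 8.68, 8.07 and 8.14 at 0 h, then 8.27, 8.27, 8.34 and 8.37 at 4 h and finally 7.99, 8.26, 8.05 and 8.07 at 24 h. Only S4 replicate 4, the array with the highest 75th percentile, fell far from the rest. Before scaling, the intensity of Actb lay between 109282 and 139216 on all arrays, a range of 1.27-fold, while the 75th percentile that is subtracted ranged over 2.62-fold. The scaled level of Actb therefore tracked the brightness of the array, with a Pearson correlation of -0.93 over the 24 arrays, and the median of the same correlation for the 100 brightest probes was -0.91. The brightest probe of an array reached 162736 to 202033, and Actb ranked from 6 to 26 among all probes. None of its spots was marked as saturated. Its differences, such as -0.35 between 4 h and 0 h in sham (95% CI -0.67 to -0.023, limma adjusted p = 0.0611), stand beside these values, and the part of the brightness in them was not tested further. Without S4 replicate 4 the fall in sham to 24 h passed the test (-0.31, adjusted p = 0.0180), with an adjusted p from 0.00539 to 0.758 over the 24 alternatives, and so did that in nsPEF (-0.26, adjusted p = 0.0443), while spike-in scaling turned these 2 differences to 0.37 (adjusted p = 0.0462) and 0.22. At 4 h against 0 h in sham Actb was called without S4 replicate 1 or 2 (adjusted p = 0.0278 and 0.0375), with a range of 0.0155 to 0.741.

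**Figure D2:**
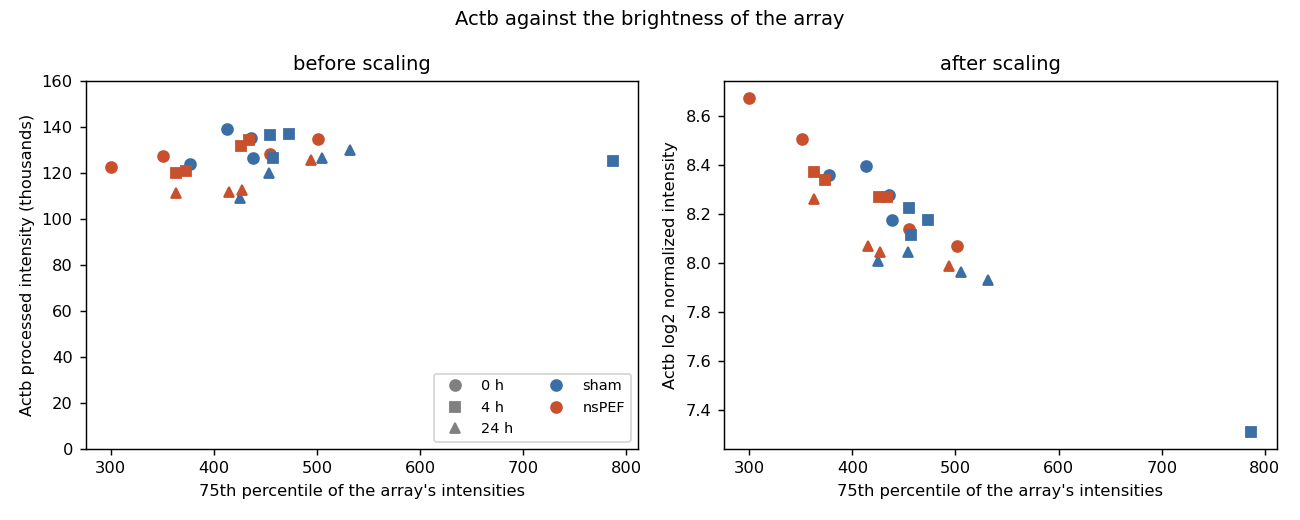
The processed intensity of Actb before scaling (left, arbitrary units, axis from 0) and its log2 normalized intensity after scaling (right) are plotted against the 75th percentile of each of the 24 arrays, with circles, squares and triangles for 0, 4 and 24 h and sham in blue and nsPEF in red. The points on the left lie nearly level from 109282 to 139216, and those on the right descend with brightness to S4 replicate 4 at 7.31.

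Between 0 h and 24 h the genes no longer moved together. In sham cells Ankrd1 was higher and Ccn1, Srf, Tagln and Cnn1 were lower, which is 1 and 4 of 10 beside 18.1% and 18.6% of all probes, and spike-in scaling reversed Srf and Tagln. In nsPEF cells Ankrd1 was higher and Ccn1, Srf, Vcl, Cnn1 and Tpm1 were lower, which is 1 and 5 beside 24.1% and 18.3%. Tpm1 is counted here by its brightest probe, and its probe A_55_P2078680 was called higher (0.23, limma adjusted p = 0.00640). For the counted probes spike-in scaling gave 5 higher and 2 lower, with Vcl and Tpm1 reversed and Ccn2 (0.37, adjusted p = 6.6e-05) and Acta2 (0.52, adjusted p = 1.7e-04) called higher. Over the 24 alternatives the adjusted p of Ccn2 ranged from 6.6e-05 to 0.258 and that of Acta2 from 1.7e-04 to 0.867. The median difference of the 10 genes was -0.22 in sham and -0.23 in nsPEF, and that of all probes 0.016 and 0.065. Of the 10 genes Ccn1 had the largest fall in both arms (log2 differences -1.38 and -1.66), followed by Cnn1 (-0.92 and -0.99). Acta2 and Tpm1 were not called in sham (-0.13 and -0.11, limma adjusted p = 0.155 and 0.0852), but Acta2 was without S0 replicate 2 (-0.19, adjusted p = 0.0387) and Tpm1 without S0 replicate 4 (-0.14, adjusted p = 0.0426), and over the 24 alternatives their adjusted p ranged from 6.3e-05 to 0.592 and from 1.2e-06 to 0.830. Under spike-in scaling 9 of the 10 genes were called in sham, 7 higher and 2 lower, and Ccn1 and Cnn1 were the 2 that stayed lower.

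**Figure D3:**
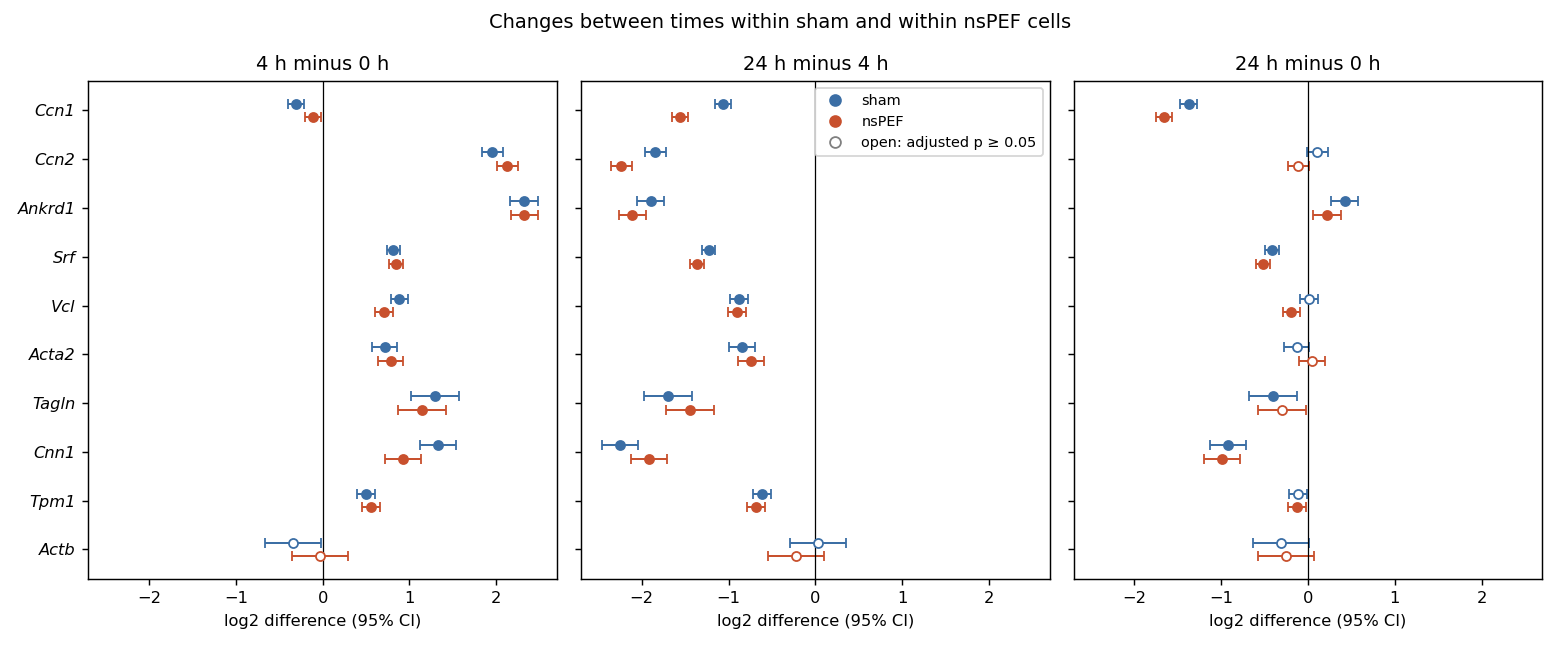
Log2 differences of the 10 genes between times (horizontal axis, with 95% confidence intervals) are plotted for sham (blue) and nsPEF (red), filled where the adjusted p was under 0.05. The left panel shows 8 genes above 0 in both arms, the middle panel 9 below 0 (under spike-in scaling Tpm1 in sham was at 0.019), and the right panel Ccn1 and Cnn1 farthest below 0.

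The question of the study was whether nsPEF altered the cells, and nsPEF was compared with sham at each time. At 0 h none of the 10 genes differed by limma at the adjusted threshold, and none had an unadjusted p under 0.05, where 3619 of all probes did. Over all probes 0.0557% were higher and 0.0478% lower. Differences of the 10 genes at 0 h lay between -0.092 (Tagln) and 0.089 (Cnn1). At 4 h Ccn1 was higher in nsPEF and no gene was lower, beside 1.74% of all probes in each direction. At 24 h no gene was higher and Ccn1 and Ccn2 were lower, beside 2.49% and 2.78%. Actb gave 0.36 at 4 h without overlap of the arrays (95% CI 0.034 to 0.68, limma adjusted p = 0.192, from 0.0333 to 0.886 over the 24 alternatives), but 0.142 without S4 replicate 4 and 0.54 with spike-in scaling, where it was called.

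Ccn1 was 1.13-fold higher in nsPEF at 4 h (log2 difference 0.18, SE 0.044, 95% CI 0.083 to 0.27, limma adjusted p = 0.0349) and 1.24-fold lower at 24 h (-0.31, SE 0.044, 95% CI -0.40 to -0.22, adjusted p = 0.00114). In both cases the 4 nsPEF arrays listed above did not overlap with the 4 sham arrays (p = 0.0286 in an exact two-sided permutation test, and no smaller p is possible with 4 against 4). The interaction of treatment and time, which asks whether the difference between nsPEF and sham changed over time, was called for Ccn1 alone (limma F test, adjusted p = 0.00457, from 0.00133 to 0.0943 over 39 alternatives), beside 0.361% of all probes. The difference between nsPEF and sham went down by 0.49 from 4 h to 24 h. The call at 4 h did not hold without S4 replicate 1, 3 or 4 or E4 replicate 3 or 4 (adjusted p from 0.0533 to 0.0924), and over the 24 alternatives it ranged from 0.00499 to 0.187. At 24 h it held in 23 of 24 alternatives (adjusted p from 3.6e-04 to 0.0573), the exception being the fit to the 8 arrays of that time alone.

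Ccn2 differed in the same directions. At 4 h it was 1.12-fold higher in nsPEF (0.16, 95% CI 0.042 to 0.28, limma adjusted p = 0.117), with 1 nsPEF array inside the range of the sham arrays, and at 24 h it was 1.17-fold lower (-0.23, SE 0.058, 95% CI -0.35 to -0.11, adjusted p = 0.0293) without overlap. Its interaction had an adjusted p of 0.0694, which ranged from 0.0107 to 0.337 over 39 alternatives. The call at 24 h was lost without S24 replicate 2 or 3 or E24 replicate 2, 3 or 4 (adjusted p from 0.0531 to 0.0944), and over the 24 alternatives it ranged from 0.00872 to 0.133. The arrays of Srf did not overlap at 24 h either (-0.12, 95% CI -0.20 to -0.046), nor did those of Vcl (-0.12, 95% CI -0.22 to -0.018), with adjusted p of 0.0559 and 0.152. Srf was called in 4 of the 24 alternatives (adjusted p from 0.0135 to 0.236), among them the deposited log2 values and the plain two-way model. Vcl was called in 1, with array weights (from 0.0373 to 0.461). Ankrd1 gave -0.19 at that time (95% CI -0.34 to -0.028, adjusted p = 0.151), and it was called without E24 replicate 1 (-0.25, adjusted p = 0.0337, in a range of 0.0157 to 0.324 over the 24 alternatives). Cnn1 gave -0.31 at 4 h without overlap (95% CI -0.52 to -0.10, adjusted p = 0.0829) and 0.021 at 24 h.

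**Figure D4:**
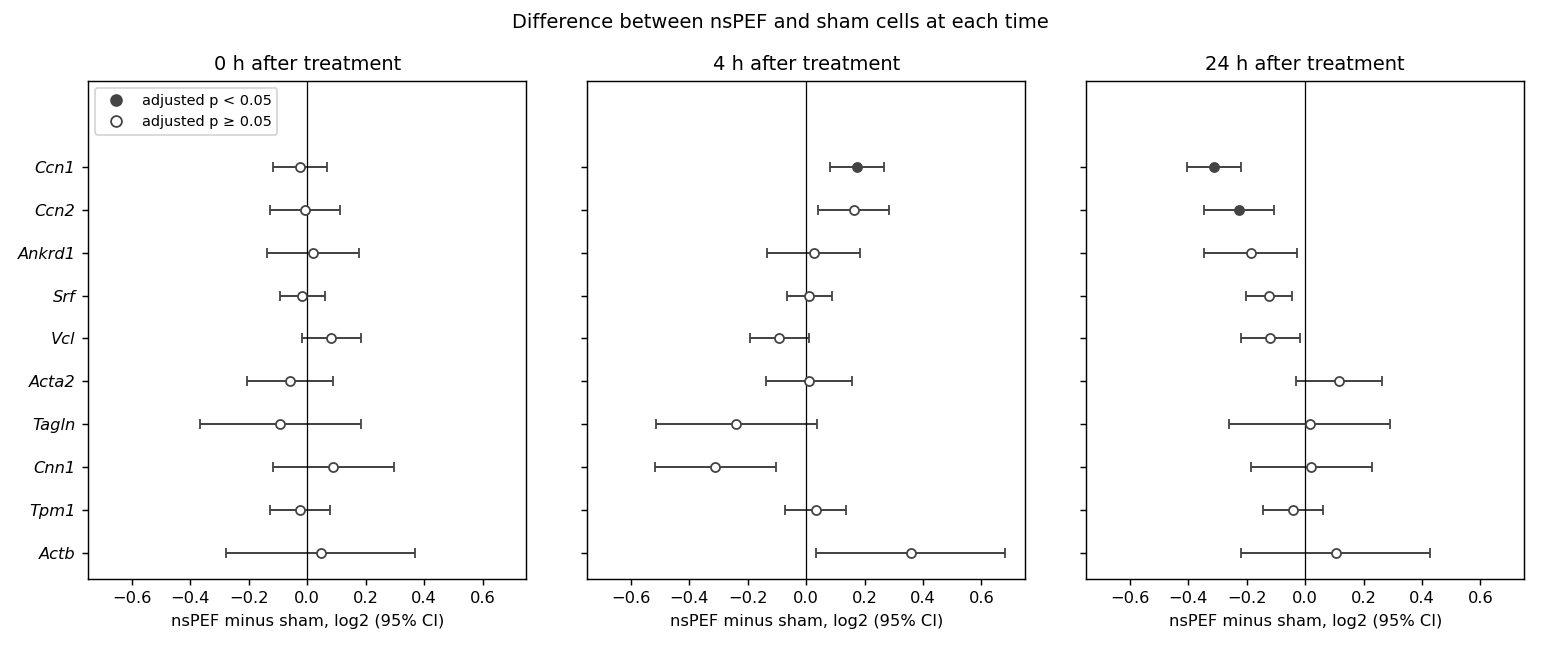
The log2 difference of nsPEF minus sham (horizontal axis, with 95% confidence intervals, n = 4 arrays per group) is plotted for the 10 genes at 0, 4 and 24 h, filled where the adjusted p was under 0.05. Ccn1 lies at 0.18 at 4 h and at -0.31 at 24 h, and Ccn2 at -0.23 at 24 h, while at 0 h the points lie between -0.092 and 0.089.

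The levels of 8 genes (all but Ccn1 and Actb) followed each other over the 24 arrays, with Pearson correlations between pairs from 0.80 (Ankrd1 and Cnn1) to 0.985 (Ankrd1 and Ccn2). The arrays share 3 slides and 3 times, and the values are a description over them. Ccn1 correlated with the 8 others from 0.27 (Ankrd1) to 0.74 (Cnn1). Among 17717 probes of other genes well above background on all arrays, the one most like each gene had a correlation of 0.97 to 0.998. These were Noct for Ankrd1, Akap12 for Ccn2, Mafk for Srf, Hs6st1 for Vcl, Lmna for Acta2, Usp36 for Tagln, Hsd17b7 for Cnn1, Esf1 for Tpm1, Medag for Actb and, for Ccn1, Fdps, which encodes an enzyme of the mevalonate pathway.

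The other genes of these pathways were described from lists. Of 30 other targets of SRF and MRTF, 29 were tested, and in sham 17 rose and 3 fell from 0 h to 4 h (median difference 0.44), 1 rose and 24 fell from 4 h to 24 h (median -0.49), and in nsPEF the counts were 20 and 4, then 2 and 25. Over all probes 29.0% rose and 30.3% fell in sham to 4 h and 29.0% and 28.6% to 24 h, and in nsPEF 32.8% and 28.4%, then 28.4% and 28.3%, and the counts of the other lists stand beside the same shares. At 24 h against 4 h, spike-in scaling moved the median of all probes from 0.037 to 0.667 in sham. In nsPEF that median moved from -0.009 to 0.379. The falls of this list and of the other lists to 24 h were counted without that scaling. Whether they hold under it was not tested. Between nsPEF and sham 0.0557% of all probes were higher and 0.0478% lower at 0 h, 1.74% each at 4 h, and 2.49% and 2.78% at 24 h, and genes of a list were counted by their brightest probe. Fhl2, a LIM-domain cofactor that binds SRF, rose 8.02-fold in sham, Itga5, the fibronectin receptor subunit, 3.07-fold, and Wdr1, which helps cofilin to disassemble actin, 2.07-fold. Myl9, the regulatory light chain of smooth muscle myosin, fell 1.91-fold, Fhl1 1.56-fold and Csrp1 1.37-fold. Myh11, the heavy chain of smooth muscle myosin, was higher in nsPEF than in sham by 2.28 at 0 h (limma adjusted p = 0.0363) and 2.08 at 24 h (adjusted p = 0.00844) on 1 dim probe in row 3 of the 384 spot rows, and its other 2 probes were well above background on too few arrays to be tested. The dim probe was called lower at 4 h than at 0 h in nsPEF (-2.03, limma adjusted p = 5.0e-04). In sham it gave 0.106 (adjusted p = 0.850). It was well above background on 0 arrays of E4. Fhl1 was lower in nsPEF at 24 h by 0.22 (adjusted p = 0.0168).

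Of the SRF cofactors and their upstream regulators, 14 of 15 were tested. In sham 9 rose and 3 fell to 4 h, and 1 rose and 9 fell from 4 h to 24 h. The cofactors Mrtfa and Mrtfb rose by 0.71 and 0.74, the TCF factors Elk4 and Elk3 by 0.88 and 0.78, and Diaph1, a formin that elongates actin filaments, by 0.99. Among those that fell was Diaph3, another formin, by 0.90. The TCF factor Elk1 fell by 0.36 in sham (limma adjusted p = 0.0387) and gave -0.019 in nsPEF (adjusted p = 0.919). Its probe was bright, with a level of 8.22 ± 0.094 in S0 and 7.87 ± 0.38 in S4 (SD, n = 4), and the part of the brightness of the arrays in its fall was not tested. Limk1, the kinase that inactivates cofilin, was lower in nsPEF at 4 h by 0.36 (adjusted p = 0.0131).

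The early targets of SRF with its TCF cofactors took the opposite course. All 9 were tested, and 7 fell from 0 h to 4 h in sham, with a median difference of -3.26. Fosb, a partner of Jun proteins in AP-1, fell by 5.89, the zinc finger factor gene Egr1 by 3.85, and Fos by 7.29. Mcl1, a survival factor, rose by 0.96 and Egr3 by 0.36. In nsPEF 7 fell and 1 rose. At 24 h 8 of the 9 were below 0 h in each arm, beside 18.6% of all probes in sham and 18.3% in nsPEF. Between nsPEF and sham, Fosb was higher at 4 h by 0.38 (limma adjusted p = 0.0357), and Fos and Egr2 were lower at 24 h by 0.49 and 0.43 (adjusted p = 0.0171 and 0.0148).

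Of 19 other targets of YAP, 18 were tested. In sham 8 rose and 7 fell to 4 h, with a median difference of 0.048, and 5 rose and 10 fell from 4 h to 24 h. In nsPEF the counts were 8 and 7, then 3 and 10. Fjx1 rose 4.69-fold, Dock5 2.95-fold and Foxf2 2.01-fold, while Rbms3 fell 2.91-fold, Gadd45a 2.10-fold and Crim1 1.59-fold. Gadd45a, a stress-induced growth arrest gene, was higher in nsPEF at 4 h by 0.40 (limma adjusted p = 0.0124), and Crim1 and Ccdc80 were lower at 24 h by 0.31 and 0.24 (adjusted p = 0.0262 and 0.0197). Of the 4 other CCN genes 2 were tested, and at 4 h in sham Ccn4 rose 1.36-fold and Ccn5 fell 1.74-fold. The probe of Ccn5 was dim and well above background on only 16 of the 24 arrays. Its mean level was -4.33 in S0 and -5.13 in S4, near the background, so the size of its fall is uncertain. Neither Ccn4 nor Ccn5 was called between nsPEF and sham.

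All 18 genes of the Hippo core and its partners were tested, and in sham 13 rose and 4 fell to 4 h (median 0.48), after which 4 rose and 13 fell to 24 h (median -0.53). The coactivators Yap1 and Wwtr1 (TAZ) rose by 0.37 and 0.53. Tead4, one of the DNA-binding partners, rose 7.49-fold and then fell by 3.22 on the log2 scale, while Tead2 fell 1.29-fold. The scaffold Amotl1 rose 3.45-fold and the kinase adaptor Mob1b 2.41-fold, and Amot fell 1.88-fold and the kinase gene Stk3 1.48-fold. Between nsPEF and sham, Tead3 was lower at 4 h by 0.27 (limma adjusted p = 0.0291) and Mob1b was higher at 24 h by 0.21 (adjusted p = 0.0389). Of 15 other focal adhesion genes, 11 rose and 1 fell to 4 h in sham and 12 fell to 24 h. Tns3, a tensin, rose 4.05-fold, the adaptor Bcar1 2.12-fold and the kinase Src 1.91-fold, and Tln2, a talin, fell 2.27-fold. None of the 15 was called between nsPEF and sham at any time.

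**Figure D5:**
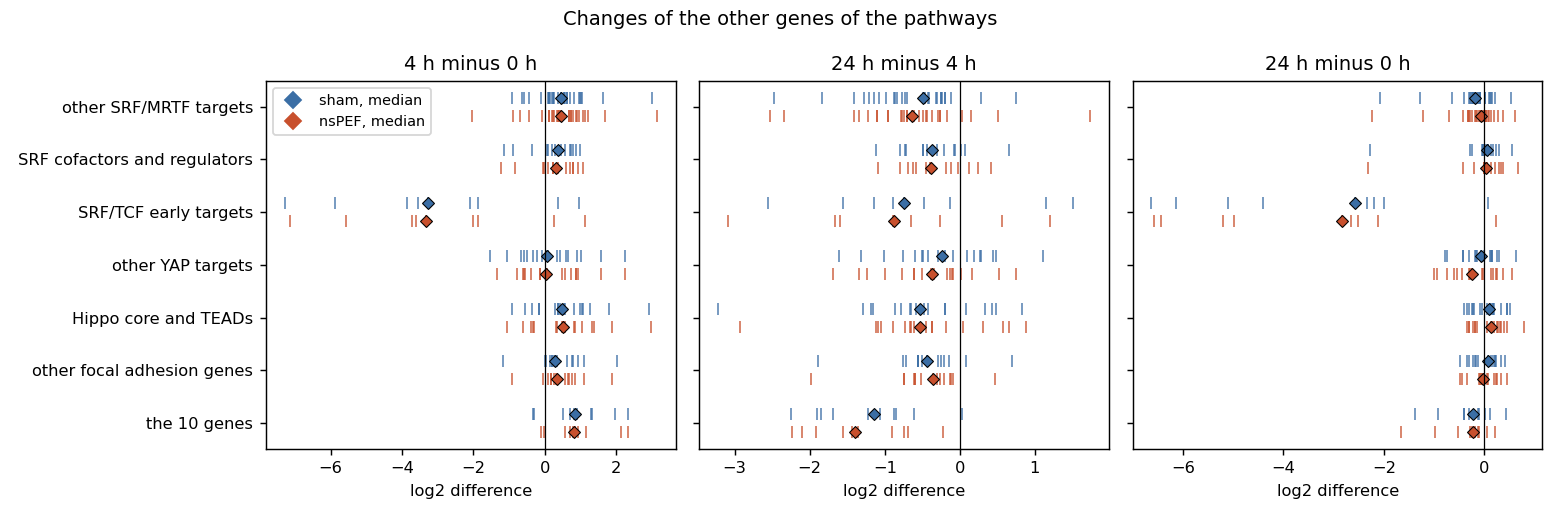
Log2 differences between times (horizontal axis, with its own range in each panel) are plotted for the tested genes of 6 lists and for the 10 genes, with a tick for each gene and a diamond for the median, for sham (blue) and nsPEF (red). In the left panel the early SRF/TCF targets lie far below 0, at a median of -3.26 in sham, while the other SRF/MRTF targets and the Hippo genes lie mostly above it.

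Markers of other cell types were read beside these changes, since Acta2, Cnn1 and Tagln also mark the peritubular myoid cells of the testis. Of the 3 other myoid markers, Lmod1 was well above background on 1 array, Des on 22 and Myh11 on 17. Their summed level, relative to the 75th percentile as 1, was 0.0836 to 0.0955 in S0, 0.0629 to 0.0786 in S4 and 0.0669 to 0.0874 in S24, so it was not higher at 4 h. In nsPEF it was 0.103 to 0.309 in E0, 0.0755 to 0.123 in E4 and 0.126 to 0.375 in E24. Of 4 epithelial markers, Krt8 and Krt18 rose at 4 h in both arms, with a summed level of the list of 1.23 to 1.40 in S0, 4.52 to 5.07 in S4 and 1.22 to 1.43 in S24, and Cdh1 and Epcam were well above background on 1 and 2 arrays. Of 4 endothelial markers, Cdh5, Tek and Kdr were so on 0 arrays, while Pecam1 was on all 24 and fell by 0.41 to 4 h in sham (limma adjusted p = 0.00398) before it rose by 1.07. Of 5 macrophage markers, Ptprc and Adgre1 were so on 1 array each and Cd68, Cd14 and Csf1r on all 24. Csf1r, the receptor of the growth factor CSF1, rose by 1.64 to 4 h in sham and then fell by 2.15, and Cd68 and Cd14 fell by 0.92 and 0.60 to 4 h. The summed level of the macrophage list was 3.69 to 3.90 in S0, 4.47 to 4.93 in S4 and 2.14 to 2.38 in S24, and in nsPEF 3.29 to 3.58, 4.38 to 4.68 and 2.13 to 2.49, so in both arms it was highest at 4 h. Of 6 Sertoli cell markers, Sox9 and Wt1 were tested, and the list summed to 20.5 to 25.0 in S0, 11.8 to 14.9 in S4 and 18.1 to 20.7 in S24. The Leydig list summed to 9.72 to 10.4, 7.28 to 7.76 and 5.85 to 6.96 in these groups, and the germ cell list to 1.05 to 1.14, 0.383 to 0.600 and 0.718 to 0.793. Between the arms, Csf1r was lower in nsPEF at 0 h by 0.57 (limma adjusted p = 0.0375), where 0.0478% of all probes were lower. At 24 h Wt1, Ddx4 and Zbtb16 were lower by 0.28, 0.72 and 0.30 (adjusted p = 0.0496, 0.0273 and 0.0389), beside 2.78% of all probes. The probe of Ddx4 was well above background on 16 arrays. No other marker but Myh11, described above, was called between nsPEF and sham. The part of other cells in the results was not tested.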

How the data were processed

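RNA from TM3 cells in 6 groups of 4 biological replicates was labelled with Cy3 and hybridized by the authors, with spike-in RNA, to 24 one-colour Agilent mouse arrays read with Agilent Feature Extraction 12.0, per the labels. Each spot of the deposited scanner text has intensities in arbitrary units, and the processed intensity had its background subtracted by the authors' software and was not scaled from array to array. A second deposited table has log2 values that the authors shifted to the 75th percentile and centred for each probe, and it served as an alternative. Columns of samples that could not be placed numbered 0.

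Spots marked as not uniform or as outliers were left out, the spots of a probe were averaged, and log2 of the array's 75th percentile, taken over the 59305 spots other than controls, was subtracted from log2 of the intensity. Tests covered the 37687 probes that 2 or more of 4 arrays of a group showed well above background. The 6 group means were fitted to all 24 arrays in limma 3.58.1 (R 4.3.3), the two-way design of the methods with moderated variances, and the Benjamini-Hochberg adjustment ran over those probes. The procedure was tested on simulated data with independent normal spread. These held no effects of slide, of position or of the background floor, so the test does not cover those. The p values cover the spread between the samples that the labels call biological replicates. Precision is limited by the 4 arrays per group and by a median signal over background of 2.60 to 3.60. RefSeq transcripts gave 34566 probes a symbol.

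The 10 genes, the lists and the tests were chosen with earlier results of these data known. The lists held 30 other SRF and MRTF targets, 15 SRF cofactors and regulators, 9 early SRF/TCF targets, 19 other YAP targets, 18 Hippo genes, 4 CCN genes and 15 focal adhesion genes, beside markers of cell types. Named from a list were the called genes, up to 3 each way, with the largest changes at 4 h against 0 h in sham, up to 3 with the largest called difference between nsPEF and sham, and for each of the 10 genes the 1 gene outside the lists with the highest correlation. Mrtfa, Mrtfb, Yap1, Wwtr1 and the markers were named after their values were seen, and 1 gene that the rule names is not reported here. Alternatives were quantile normalization, scaling on 6 spike-in probes, other bases of the 75th percentile, normexp with an offset of 50, the deposited log2 values, other filters, marked spots kept, centring by 24 bins of spot rows and 4 of signal, a plain two-way model, a fit to the compared groups alone, array weights, a replicate block, the mean of a gene's probes and leaving out each array. The percentile over probes in place of spots and the fit without S4 replicate 4 were added after seeing the data.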

Additional observations from a re-analysis of the deposited data

Results flagged for a closer look

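The interaction of treatment and time was called for Ccn1 (limma F test, adjusted p = 0.00457), whose difference between nsPEF and sham was 0.18 at 4 h and -0.31 at 24 h on the log2 scale.

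In 5 groups 1 array lay far from the other 3 by Dixon's test, which compares the gap to the nearest array with the range of the group. Chance gives about 1 in 20 such groups, or 4.45 of the 89 groups of probes tested. Ccn1 on E24 replicate 3 was 3.45 against 3.30 to 3.31 on the others (gap over range 0.965). Tagln on S24 replicate 2 was -0.14 against -0.69 to -0.625 (0.882), and Actb on S4 replicate 4 was 7.31 against 8.11 to 8.23 (0.878). Of the second probes, that of Tpm1 on S0 replicate 2 was -0.061 against 0.041 to 0.054 (0.879), and the dim probe of Acta2 on E0 replicate 1 was -4.69 against -5.18 to -5.10 (0.835).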

How the results depend on the processing

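The number of the 10 genes called stayed within 1.5 times its value under every alternative for sham and nsPEF at 4 h against 0 h (9 to 10 and 8 to 9), for both at 24 h against 4 h (8 to 9 and 9 to 10), for nsPEF at 24 h against 0 h (4 to 7) and for nsPEF against sham at 0 h (0 in each). For sham at 24 h against 0 h it was 9 in place of 5 with spike-in scaling and lay within 1.5 times otherwise. For nsPEF against sham at 4 h (1) it was 2 with quantile normalization, with the percentile over probes detected on all arrays and with no filter, 3 with spike-in scaling and with the mean of a gene's probes, and 0 with normexp, the deposited log2 values, a fit to the compared groups alone, array weights and, added after seeing the data, all comparisons without S4 replicate 4. At 24 h (2) it was 1 with normexp, 0 with the compared groups alone and 5 with array weights. For the interaction (1) it was 0 with normexp and 2 with spike-in scaling, the percentile over detected probes, the plain two-way model, array weights and the mean of probes. Leaving out 1 array gave 0 to 1 at 4 h, 1 to 3 at 24 h and 1 to 2 for the interaction. The cause of these shifts was not tested.

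Spike-in scaling moved the median of all probes by up to 0.70 and reversed 5 of the differences called in the main analysis, to 0.019 for Tpm1 in sham at 24 h against 4 h, to 0.274 and 0.284 for Srf and Tagln in sham at 24 h against 0 h, and to 0.287 and 0.351 for Vcl and Tpm1 in nsPEF at 24 h against 0 h. It also turned differences that were not called there, among them Acta2, Tpm1 and Actb in sham and Ccn2 in nsPEF at 24 h against 0 h. Of all called probes, 656 of 1312 were higher in nsPEF than in sham at 4 h, but 16.5% were with quantile normalization, 98.8% with spike-in scaling, 78.2% with the percentile over detected probes, 68.7% with normexp, 34.4% with the deposited values and 29.8% with centring by row. At 24 h it was 47.2%, and 29.5%, 63.2% and 35.3% with quantile normalization, detected probes and the deposited values. At 0 h it was 53.8%, and 26.9%, 96.9% and 70.7% with quantile normalization, spike-in scaling and detected probes. With spike-in scaling it was 89.5% and 98.1% in sham at 24 h against 4 h and 0 h (50.3% and 49.4% in the main analysis) and 80.4% and 24572 of 25859 in nsPEF (50.1% and 56.9%). Detected probes gave 62.3% in sham at 24 h against 4 h and normexp 37.0% at 24 h against 0 h.

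With a replicate block the counts of the 10 comparisons were 9, 9, 5, 9, 9, 6, 0, 1, 2 and 1, as without it. Deviations of arrays with the same number correlated from -0.041 to 0.094 over 12 pairs, and in 7 of them the arrays correlated best with their own number. The paper says that nearly all tests of a biological replicate ran in parallel on a shared cell suspension. The labels do not say whether equal numbers mark a shared suspension, and the values above do not settle it. The main fit took the arrays as unpaired.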
